A study of Mus musculus with 3 samples.

Results

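Growth hormone, prolactin and other genes of the pituitary gland were read in 3 mouse brain libraries, and nearly all of their counts lay in 1 of them. The 9 genes, out of 17992 counted gene symbols, were the hormone genes Gh, Prl, Pomc and Cga, the receptor gene Ghrhr, the lineage transcription factors Pitx1, Tbx19 and Lhx3, and the epithelial gene Epcam. They were looked up by symbol, and all 9 were counted. They had been selected on their counts in these 3 libraries, with the large vehicle values known, so every level and ratio of theirs below is a description, with no test. All mice were adult, wild-type C57BL/6, and total RNA came from the brain. The AGNHW group was given AGNHW, the multi-ingredient Chinese medicine Angong Niuhuang Wan, at 3 mg/g daily. The vehicle group is labelled as the stroke model made by blocking the middle cerebral artery, and the sham group is the control. The labels do not say that the AGNHW mice were occluded too, and they give no brain region, sex, time after surgery or number of mice per library. There was 1 library per group, of 18184691 counts (AGNHW), 15718594 counts (vehicle) and 18286151 counts (sham), so no spread between animals could be estimated and no difference has a replicate check.

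The pituitary hangs below the hypothalamus at the base of the skull, outside the brain proper. Each endocrine cell type of its anterior lobe makes large amounts of its own hormone: somatotrophs make growth hormone, lactotrophs prolactin, corticotrophs corticotropin, and thyrotrophs and gonadotrophs glycoprotein hormones. Melanotrophs of the intermediate lobe also use Pomc. Of the hormone genes, Pomc is known to be active in the brain as well, in neurons of the arcuate nucleus of the hypothalamus.

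The promoters of members whose levels stood together are shown with short motifs of the factors that direct pituitary lineages. RefSeq windows of the build GRCm38.p6 were found for 6 of the 9 genes, namely Prl, Pomc, Cga, Tbx19, Lhx3 and Epcam. The 4 that held a match are given below as the 250 bases before the gene's start, 5′ to 3′ on the gene's strand, with capitals for the matches. They lie at chr13:27057320-27057569 on the plus strand (Prl), chr12:3954695-3954944 on the plus strand (Pomc), chr4:34893529-34893778 on the plus strand (Cga) and chr1:165160774-165161023 on the minus strand (Tbx19).
Prl: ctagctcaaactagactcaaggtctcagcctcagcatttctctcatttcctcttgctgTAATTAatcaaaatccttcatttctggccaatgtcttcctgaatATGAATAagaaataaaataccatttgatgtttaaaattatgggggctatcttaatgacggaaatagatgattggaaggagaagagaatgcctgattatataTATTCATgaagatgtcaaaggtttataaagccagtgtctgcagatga
Pomc: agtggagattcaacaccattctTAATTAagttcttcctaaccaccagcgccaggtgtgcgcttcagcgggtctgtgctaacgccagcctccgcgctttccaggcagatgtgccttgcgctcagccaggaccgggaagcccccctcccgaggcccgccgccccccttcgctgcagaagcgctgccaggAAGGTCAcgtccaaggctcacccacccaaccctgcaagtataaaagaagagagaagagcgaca
Cga: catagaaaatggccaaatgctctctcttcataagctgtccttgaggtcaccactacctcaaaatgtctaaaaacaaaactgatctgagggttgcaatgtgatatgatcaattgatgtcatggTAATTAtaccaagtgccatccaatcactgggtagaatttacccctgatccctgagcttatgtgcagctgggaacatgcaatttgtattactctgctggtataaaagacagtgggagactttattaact
Tbx19: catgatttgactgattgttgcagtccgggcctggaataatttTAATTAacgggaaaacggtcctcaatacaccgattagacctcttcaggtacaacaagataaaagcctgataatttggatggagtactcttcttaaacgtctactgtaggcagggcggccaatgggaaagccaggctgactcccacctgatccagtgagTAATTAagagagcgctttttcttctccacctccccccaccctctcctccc

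The motif TAATTA, a homeodomain core to which Lhx3 and other factors can bind, occurred in all 4 of these windows, once in Prl, Pomc and Cga and at 2 places in Tbx19. It occurred in 4.84% of 32851 windows of the same length and in neither of the other 2 genes' windows (Lhx3 and Epcam). The motif TATNCAT of Pou1f1, the factor of somatotrophs, lactotrophs and thyrotrophs, was found at 2 places in the Prl window, one of them on the opposite strand as ATGAATA, against 7.92% of all windows with at least one match. AAGGTCA, a half-site of nuclear receptors such as Nr5a1, was found once, in the Pomc window, against 4.08% of all windows. TAATCC of Pitx1 (6.25% of all windows) and TCACACC of Tbx19 (3.33%) were not found in any of the 6 genes' windows. Both strands were searched. No motif match overlapped another, and a match is a description of these letters, not of binding.

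The hormones came first in size. Gh, the growth hormone gene, had 4 counts in AGNHW, 39065 counts in vehicle and 0 counts in sham. The vehicle library alone carried it at a high level, at 2568 CPM (counts scaled to a common library total, then adjusted between libraries by TMM, the trimmed mean of M-values), against 0.219 CPM in AGNHW. It was at least 16111-fold higher in vehicle than in sham, with 3 counts set as the limit for the sham count of 0. The 95% counting interval of that ratio started lower, at 13101-fold. Later folds against a library at 0 used the same 3 counts. Gh was 11727-fold lower in AGNHW than in vehicle (95% counting interval 4580-fold to 43041-fold). In such bulk RNA, more cells of a type and more RNA per cell cannot be told apart, and with 1 library per group neither can the sample and the condition. The intervals here and below cover counting error only, and PCR copies of one molecule may be counted more than once.

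Prl, the prolactin gene, had 1 count in AGNHW, 5606 counts in vehicle and 0 counts in sham. At 369 CPM in vehicle it was at least 2312-fold higher than in sham. In AGNHW it was 6731-fold lower than in vehicle (1208-fold to 265919-fold), an interval that is wide because it rests on 1 count. Both genes, which share an evolutionary origin and depend on Pou1f1, were thus at or near 0 in the AGNHW and sham libraries.

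Pomc, whose product is cut into corticotropin, melanocyte-stimulating hormone and beta-endorphin, had 40 counts in AGNHW, 12008 counts in vehicle and 56 counts in sham. Its level was 2.19 CPM in AGNHW, 790 CPM in vehicle and 2.98 CPM in sham, so that, unlike Gh and Prl, it was also read at 40 or more counts in the AGNHW and sham libraries. It was 265-fold higher in vehicle than in sham (204-fold to 351-fold) and 360-fold lower in AGNHW than in vehicle (265-fold to 505-fold). Between AGNHW and sham its ratio was 0.736 (0.478 to 1.12), a difference not detectable at this depth.

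Cga, the alpha subunit that thyrotropin, luteinising hormone and follicle-stimulating hormone share, had 0 counts in AGNHW, 156 counts in vehicle and 2 counts in sham. It reached 10.3 CPM in vehicle, 96.5-fold higher than in sham (26.3-fold to 804-fold), and was at least 62.4-fold lower in AGNHW than in vehicle, with 3 counts as the AGNHW limit. The partners of Cga did not follow it in size. Tshb, the beta subunit of thyrotropin, had 17 counts in AGNHW, 28 counts in vehicle and 17 counts in sham, a vehicle against sham ratio of 2.04 (1.08 to 3.97). It was called higher there and called lower in AGNHW than in vehicle, 1.98-fold (1.05-fold to 3.85-fold). Lhb, the beta subunit of luteinising hormone, had 21 counts in AGNHW, 13 counts in vehicle and 8 counts in sham. Its ratio was 2.01 (0.772 to 5.60) in vehicle against sham and 2.70 (1.15 to 7.06) in AGNHW against sham. Its mean was below the 1 CPM needed for a call. Fshb, the beta subunit of follicle-stimulating hormone, was not among the counted symbols.

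The 4 hormone genes Gh, Prl, Pomc and Cga summed to 2.47e-04% of all counts in AGNHW (exact Clopper-Pearson 95% interval 1.81e-04% to 3.31e-04%), 0.362% in vehicle (0.359% to 0.365%) and 3.17e-04% in sham (2.41e-04% to 4.10e-04%). The mixture of the 4 hormones also differed between libraries. In AGNHW, Pomc gave 88.9% of the 45 hormone counts and Gh 8.89%. In vehicle, Gh gave 68.7%, Pomc 21.1%, Prl 9.86% and Cga 0.274% of 56835 hormone counts. In sham, Pomc gave 96.6% of 58 hormone counts and Cga the remaining 3.45%.

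To compare levels between genes, CPM was divided by the length of the longest annotated transcript. In the vehicle library Gh stood at 2980 CPM per kb, rank 7 among 17569 genes with a length, Pomc at 757 CPM per kb (rank 45), Prl at 412 CPM per kb (rank 108) and Cga at 14.5 CPM per kb (rank 4416). Per length, the level of Gh was 3.94 times that of Pomc and 7.24 times that of Prl. The other 5 members were far lower in vehicle, at 2.13 CPM per kb for Ghrhr, 1.97 for Epcam, 1.05 for Pitx1, 0.976 for Lhx3 and 0.618 for Tbx19. In AGNHW, Pomc was at 2.10 CPM per kb (rank 11280) and Lhx3 at 0.369 CPM per kb, and the next was Gh at 0.254 CPM per kb. In sham, Pomc was at 2.85 CPM per kb (rank 10489) and the next was Cga at 0.150 CPM per kb. The order of neighbouring low members rests on few counts and on 1 library, and their spread between animals is unknown.

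**Figure D1:**
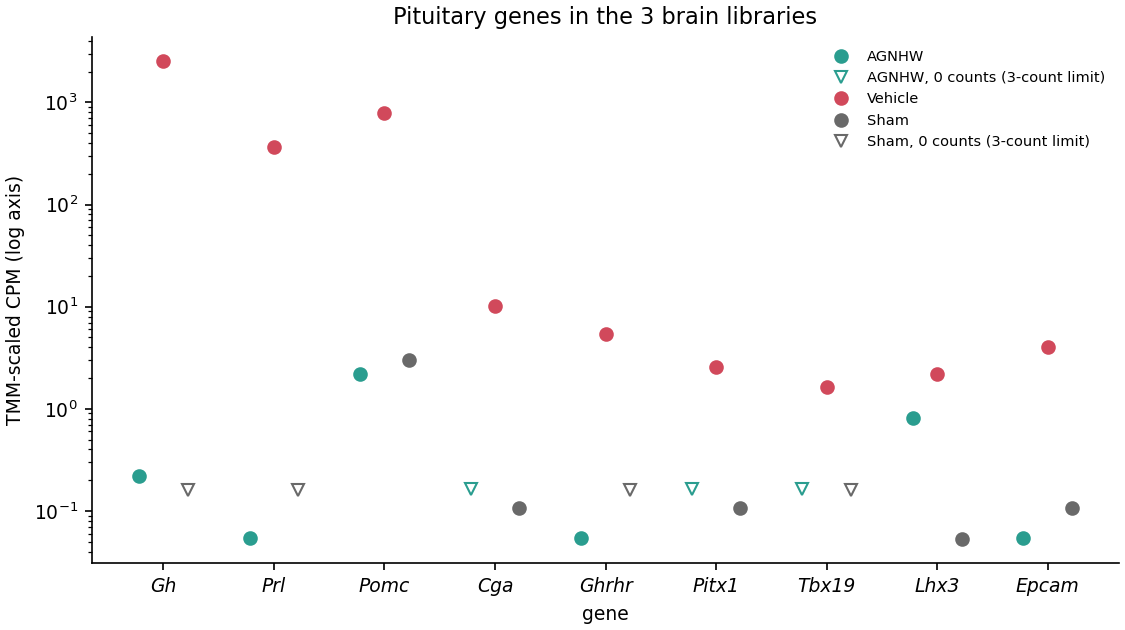
TMM-scaled CPM (log axis) of each of the 9 genes in the AGNHW, vehicle and sham libraries, 1 point per library; open triangles mark a library with 0 counts, drawn at the level of 3 counts. The vehicle point is the top one for every gene, from 1.64 CPM for Tbx19 to 2568 CPM for Gh, Pomc is above 2 CPM in the AGNHW and sham libraries as well, and the AGNHW point of Lhx3 lies nearest to its vehicle point.

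Ghrhr, the receptor through which growth hormone-releasing hormone drives somatotrophs, had 1 count in AGNHW, 83 counts in vehicle and 0 counts in sham. It was at least 34.2-fold higher in vehicle than in sham and 99.7-fold lower in AGNHW than in vehicle (17.4-fold to 3983-fold). Its ligand gene Ghrh, made by arcuate neurons, had 7 counts in AGNHW, 5 counts in vehicle and 12 counts in sham, too few for a call.

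The lineage factors were read at low counts. Pitx1, an early homeodomain factor of the oral ectoderm from which the anterior pituitary forms, had 0 counts in AGNHW, 39 counts in vehicle and 2 counts in sham. It was 24.1-fold higher in vehicle than in sham (6.25-fold to 206-fold) and at least 15.6-fold lower in AGNHW than in vehicle. Tbx19, the T-box factor that corticotrophs and melanotrophs need to express Pomc, had 0 counts in AGNHW, 25 counts in vehicle and 0 counts in sham. It was at least 10.3-fold higher in vehicle than in sham and at least 10.01-fold lower in AGNHW than in vehicle. Tbx19 was thus the one member read in a single library only.

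Lhx3, a LIM homeodomain factor of pituitary development that is also used by interneurons and motor neurons of the hindbrain and spinal cord, had 15 counts in AGNHW, 33 counts in vehicle and 1 count in sham. It was 40.8-fold higher in vehicle than in sham (6.84-fold to 1661-fold) but only 2.64-fold lower in AGNHW than in vehicle (1.40-fold to 5.23-fold). Between AGNHW and sham its ratio was 15.5 (2.38 to 651). Lhx3 therefore stood apart from the other members, as the one gene with more than 4 counts in AGNHW besides Pomc. The vehicle library held 71.3% of the summed CPM of Lhx3 over the 3 libraries, against 96.0% to 100% for each of the other 8 members.

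Epcam, an adhesion molecule of epithelial cells, including those of the anterior pituitary, had 1 count in AGNHW, 61 counts in vehicle and 2 counts in sham. It was 37.7-fold higher in vehicle than in sham (10.01-fold to 319-fold) and 73.2-fold lower in AGNHW than in vehicle (12.7-fold to 2940-fold).

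Taking all genes, a call required a ratio of at least 1.5 either way, a mean of at least 1 CPM over the 3 libraries and a 95% counting interval without 1. Of the 9 members, 7 reached the minimum level, with Lhx3 just inside at a mean of 1.01 CPM and Pitx1 (0.890) and Tbx19 (0.548) outside. A gene near 0 in both other libraries could reach that minimum only through the vehicle library, so its call was bound to follow. In vehicle against sham 7 members were called higher and 0 lower, beside 8.66% of 15558 genes called higher and 14.2% called lower. In AGNHW against vehicle 7 were called lower and 0 higher, beside 2.56% of genes called lower and 4.01% called higher. In AGNHW against sham 1 (Lhx3) was called higher and 0 lower, beside 3.32% of genes called higher and 5.47% called lower. The first 2 comparisons share the vehicle library. The summed level of the 9 members was 3.39 CPM in AGNHW, 3753 CPM in vehicle and 3.35 CPM in sham.

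**Figure D2:**
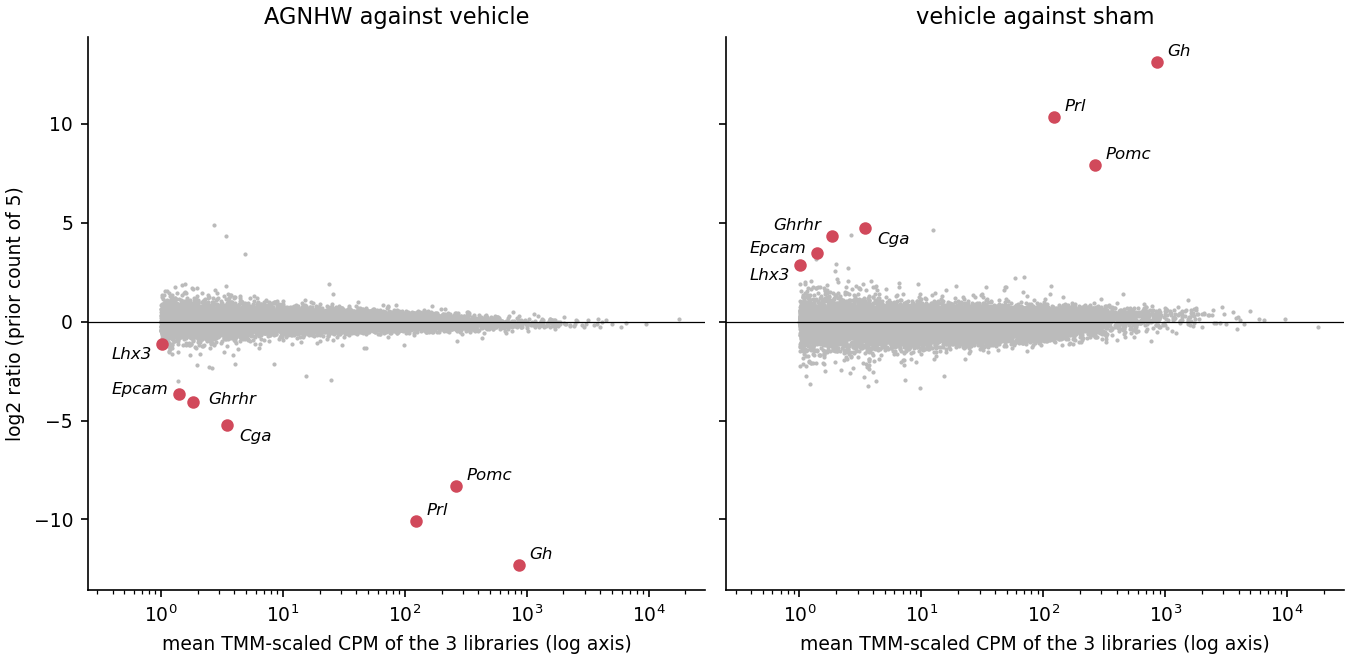
Log2 ratio with a prior count of 5 (vertical axis) against mean TMM-scaled CPM (log axis) for 15558 genes, with the 7 members among them in red, for AGNHW against vehicle (left) and vehicle against sham (right). Gh, Prl and Pomc lie far from the grey cloud in both panels, and Lhx3 lies at its edge in the left panel.

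The 9 genes had been selected with their large vehicle values known, so smaller differences in other genes could be foreseen. Other factors of the pituitary lineages were compared between vehicle and sham. A trend with transcript length and GC content took 46.1% of the variance of the log2 ratio over 9941 genes in that comparison. The calls of this list and of the later lists were made without correcting for that trend, and its part in them was not tested. The lowest sum of any counted gene over the 3 libraries was 21, so a gene read less often would not be seen here. Among 19 other lineage factors, 15 were counted and 4 were not, namely Pou1f1, Hesx1, Lhx4 and Neurod4. Of the 15, 12 reached the minimum level. In vehicle against sham 4 of the 12 were called higher and 3 lower, with a median log2 ratio of 0.23 (0.01 over all genes). Over all 15558 genes 8.66% were called higher and 14.2% lower there, and these shares stand beside the later lists too. In AGNHW against vehicle the shares were 4.01% higher and 2.56% lower. Sox3, a factor of hypothalamic and pituitary progenitors, was 2.82-fold higher (1.73-fold to 4.71-fold). Pax7, the factor that sets melanotrophs apart, was 2.59-fold higher (1.52-fold to 4.52-fold) with 36 counts in AGNHW, 46 counts in vehicle and 22 counts in sham.

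Nr5a1, the factor of gonadotrophs that also marks the ventromedial hypothalamus, was 2.39-fold higher (1.24-fold to 4.80-fold). Gata2, used by thyrotrophs and gonadotrophs, was 1.80-fold higher (1.44-fold to 2.25-fold). Eya1 was 2.16-fold lower (1.54-fold to 3.07-fold), Zbtb20 1.72-fold lower (1.54-fold to 1.94-fold) and Isl1 1.69-fold lower (1.11-fold to 2.62-fold). Six6, a factor of the pituitary and the ventral hypothalamus, lay below the minimum level, with 5 counts in AGNHW, 21 counts in vehicle and 6 counts in sham. Six6 was 4.33-fold higher in vehicle than in sham (1.69-fold to 13.1-fold) and 5.04-fold lower in AGNHW than in vehicle (1.85-fold to 17.1-fold). In AGNHW against vehicle 2 of the 12 factors (Sox3 and Nr5a1) were called lower and 0 higher, with a median of -0.24 (0.00 over all genes). The called factors, which had to reach the minimum level, differed by 1.69-fold to 2.82-fold between vehicle and sham. That limit was not set for the members in the next comparison, and Pitx1 and Tbx19 lay below it. For each member but Tbx19 the ratio was 24.1-fold or more, though the interval of Pitx1 started at 6.25-fold and that of Lhx3 at 6.84-fold. Tbx19, at 0 counts in sham, was 10.3-fold higher at the 3-count limit, and its interval started at 7.78-fold. The interval of Six6 overlapped those of Pitx1, Lhx3 and Tbx19.

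Receptors for the other releasing and inhibiting hormones gave no call. Of 11, 9 were counted (Gnrhr and Avpr1b were not), and of the 6 at the minimum level 0 were called in vehicle against sham, with a median of 0.15, and 0 in AGNHW against vehicle, with a median of -0.08. Drd2, through which dopamine restrains prolactin release and which is abundant in the striatum, had a vehicle against sham ratio of 1.28 (1.16 to 1.42). Of 13 genes listed for prohormone processing and secretory granules, which neurons also use, 3 were called higher in vehicle than in sham and 1 lower. Their median was 0.11, and over all genes 8.66% were called higher and 14.2% lower. Dlk1, on this list although it is not a processing or granule gene, was 2.07-fold higher (1.88-fold to 2.29-fold). The granule protein gene Chga was 1.70-fold higher (1.63-fold to 1.78-fold) and the convertase inhibitor gene Pcsk1n 1.59-fold higher (1.56-fold to 1.63-fold). The convertase gene Pcsk1, which cuts Pomc, was 1.95-fold lower (1.64-fold to 2.33-fold). In AGNHW against vehicle 0 of the 13 were called.

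Among 10 measured genes of pituitary stem and folliculostellate cells, 3 were called higher in vehicle than in sham and 1 lower, with a median of 0.50. The shares over all genes were 8.66% higher and 14.2% lower. In AGNHW against vehicle 3 of the 10 were called lower and 0 higher, beside 2.56% and 4.01% of all genes. Cyp2f2, a cytochrome P450 gene, had 18 counts in AGNHW, 89 counts in vehicle and 12 counts in sham, 9.18-fold higher in vehicle than in sham (5.0-fold to 18.4-fold) and 5.94-fold lower in AGNHW than in vehicle (3.55-fold to 10.5-fold). The epithelial keratin genes Krt18 and Krt8 were 3.23-fold (1.84-fold to 5.91-fold) and 3.14-fold (1.61-fold to 6.50-fold) higher in vehicle than in sham. Krt8 was 3.30-fold lower in AGNHW than in vehicle (1.66-fold to 7.02-fold), whereas Krt18, with 39 counts in AGNHW and 47 in vehicle, was not called there and was 2.23-fold higher in AGNHW than in sham (1.25-fold to 4.15-fold). Sox2, which pituitary stem cells share with neural stem cells and astrocytes, was 1.67-fold lower (1.46-fold to 1.91-fold). Of 4 measured genes listed for the posterior lobe, Oxt (oxytocin) was called higher in vehicle than in sham, 2.27-fold (1.88-fold to 2.74-fold). Col25a1 was called lower there, 1.82-fold (1.56-fold to 2.14-fold). In AGNHW against vehicle Oxt was called lower, 1.59-fold (1.34-fold to 1.89-fold). Whether the Oxt RNA came from that lobe or from the hypothalamus was not tested.

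For the hypothalamus, whose arcuate neurons express Pomc, 4 of 13 measured genes were called higher in vehicle than in sham and 0 lower. Their median was 0.28, and over all genes 8.66% were called higher and 14.2% lower. In AGNHW against vehicle 2 of the 13 were called lower and 0 higher, beside 2.56% and 4.01% of all genes. The 15 counted genes summed to 326 CPM in AGNHW, 393 CPM in vehicle and 303 CPM in sham. Cartpt, which arcuate Pomc neurons also express, was 2.07-fold higher in vehicle than in sham (1.78-fold to 2.41-fold) and 1.98-fold lower in AGNHW than in vehicle (1.70-fold to 2.31-fold). The other genes called higher in vehicle than in sham were Trh (1.69-fold), Hcrt (1.59-fold) and Th (1.55-fold). The feeding peptide gene Agrp had 32 counts in AGNHW, 24 counts in vehicle and 17 counts in sham. Its vehicle against sham ratio was 1.75 (0.900 to 3.46), without a call. Agrp was called higher in AGNHW than in sham, 1.94-fold (1.05-fold to 3.72-fold). Npy had 1088 counts in AGNHW, 1091 in vehicle and 1129 in sham, a vehicle against sham ratio of 1.20 (1.10 to 1.30). The receptor gene Gpr50, with 12 counts in AGNHW, 5 counts in vehicle and 18 counts in sham, lay below the minimum level. Of the 15, Gpr50 had the largest absolute log2 ratio of vehicle against sham, at -1.54, which rests on 5 vehicle counts.

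On the side of the hormones' targets, 7 of 12 receptor and response genes reached the minimum level. In vehicle against sham 2 were called higher and 1 lower, with a median of -0.03, and in AGNHW against vehicle 0 were called. Ghr, the growth hormone receptor gene, was 1.51-fold lower in vehicle than in sham (1.12-fold to 2.05-fold). Cish, a suppressor of cytokine signalling that growth hormone and prolactin can induce, was 1.55-fold higher (1.13-fold to 2.13-fold), and Mc4r, a receptor of melanocyte-stimulating hormone, 1.70-fold higher (1.11-fold to 2.62-fold). Tshr, the thyrotropin receptor gene, had 8 counts in AGNHW, 5 counts in vehicle and 14 counts in sham, too few for a call. Socs2, another gene that growth hormone induces in liver, had a ratio of 0.977 (0.818 to 1.17).

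**Figure D3:**
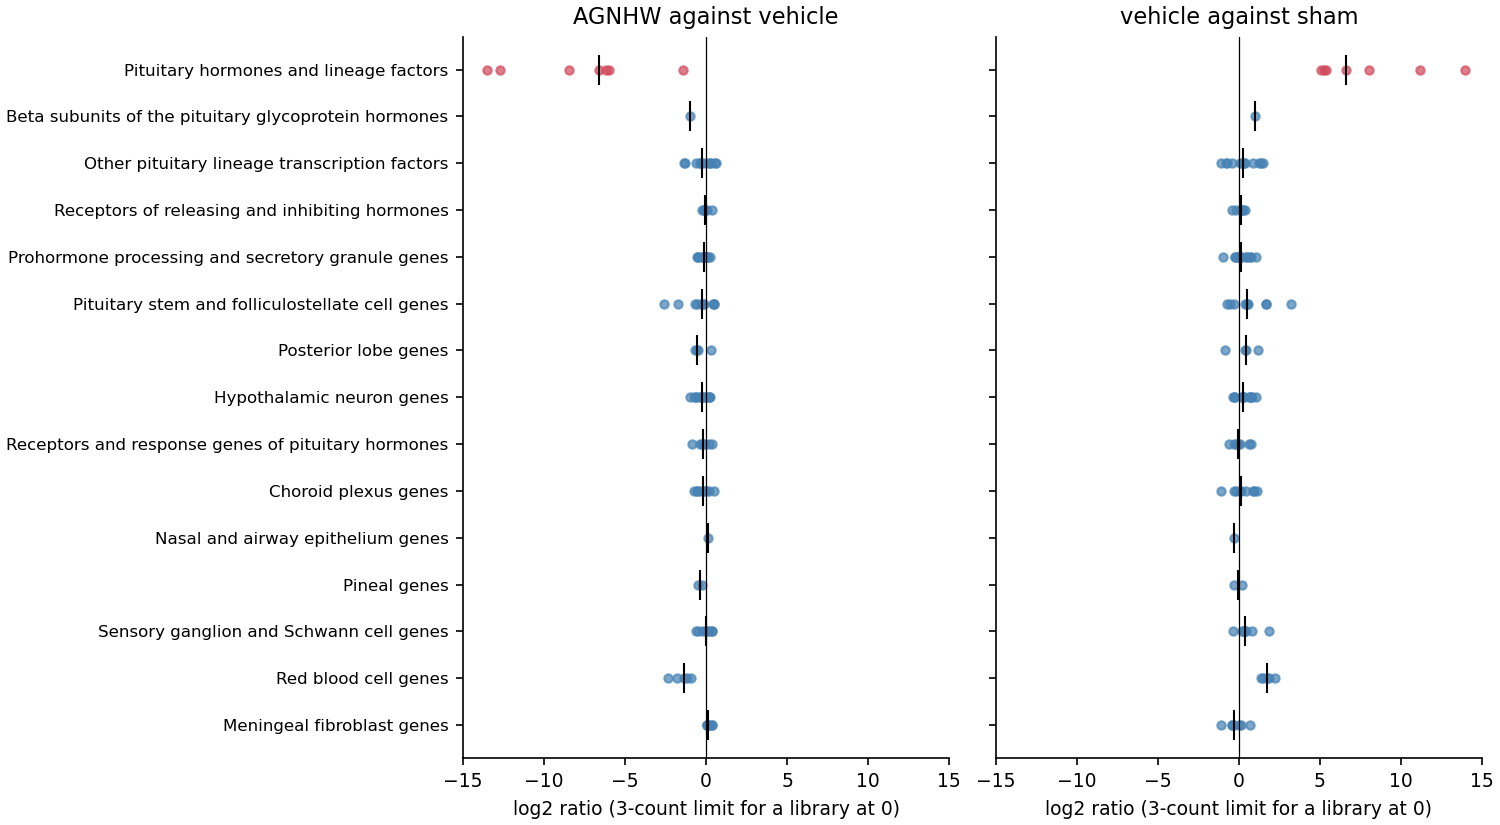
Log2 ratio of each gene at or above a mean of 1 CPM, by gene list, for AGNHW against vehicle (left) and vehicle against sham (right); a library at 0 was set to 3 counts, black ticks are list medians and red points are the 7 of the 9 pituitary genes at that level. The 7 red points span -13.52 to -1.40 on the left and 5.10 to 13.98 on the right, while the other lists lie near 0 apart from single genes and the red blood cell genes.

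Some markers of other tissues and cells also differed between the libraries, and their part in the result was not tested. All 5 measured red blood cell genes were called higher in vehicle than in sham, by 2.56-fold to 4.71-fold, and all 5 lower in AGNHW than in vehicle. Their summed level was 65.1 CPM in AGNHW, 163 CPM in vehicle and 52.8 CPM in sham. Hba-a1, Hba-a2, Hbb-bs and Hbb-bt have near-identical copies, and how reads were split between these is not known. Of 9 choroid plexus genes, 3 (Folr1, Aqp1 and the thyroid hormone carrier gene Ttr) were called higher in vehicle than in sham and 1 (Kcne2) lower, with summed levels of 658 CPM in AGNHW, 967 CPM in vehicle and 543 CPM in sham. In AGNHW against vehicle Folr1 was called lower, while Aqp1 had 85 counts in AGNHW and 63 in vehicle and was not called. Of 8 measured sensory ganglion genes 2 (Scn10a and Prph) were called higher in vehicle and 0 lower, with summed levels of 23.9 CPM in AGNHW, 24.6 CPM in vehicle and 18.5 CPM in sham. Neither was called in AGNHW against vehicle, where Scn10a had 73 counts in AGNHW and 65 in vehicle and Prph 81 in AGNHW and 52 in vehicle. Of 7 meningeal fibroblast genes 1 (Slc6a13) was called higher in vehicle than in sham and 1 (Lum) lower, and summed to 76.2 CPM in AGNHW, 69.4 CPM in vehicle and 68.9 CPM in sham. Slc6a13 stood at 20.3 CPM in AGNHW and 19.7 CPM in vehicle, with no call between them.

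Few genes of the nasal and pineal lists were counted. Of 8 nasal and airway epithelium genes only Omp and Gnal were counted, and Omp had 12 counts in AGNHW, 10 counts in vehicle and 18 counts in sham. Gnal, a G protein subunit gene that the striatum also expresses, had 3188 counts in AGNHW, 2465 counts in vehicle and 3733 counts in sham, and was called in no comparison. The pair summed to 175 CPM in AGNHW, 163 CPM in vehicle and 199 CPM in sham. Of 6 pineal genes only Aanat and Sag were counted, and neither was called in any comparison. None of the counted genes of these lists was at 0 in any library.

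The genes most like the 9 in pattern were sought by the share of a gene's summed CPM that lay in the vehicle library, among 12114 other named genes with at least 50 counts there. Slc6a5, the glycine transporter of inhibitory neurons of the brainstem and spinal cord, was closest at 90.8%, with 4 counts in AGNHW, 57 counts in vehicle and 3 counts in sham. Slc6a4, the serotonin transporter, followed at 85.5%, with 20 counts in AGNHW, 103 counts in vehicle and 1 count in sham. Cyp2f2 had 78.3% and Gnb3, a G protein subunit gene known from photoreceptors, 78.0%. Next came Alas2 (68.0%), the haem synthesis gene of red cells, Tph2 (67.8%), which makes serotonin in the raphe, and the haemoglobin gene Hba-a2 (66.9%).

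The tenth place went to Hbb-bs at 59.3%, after the adhesion gene Icam1 (61.6%) and the cartilage matrix gene Matn1 (59.6%), and the eleventh gene stood at 59.1%. Lhx3, at 71.3%, fell within the range of these genes, while the other 8 members lay above it. Lhx3, Pitx1 and Tbx19, with 33, 39 and 25 vehicle counts, would themselves not meet the limit of 50 counts. Other genes with so few vehicle counts were not searched. Slc6a4 and Matn1 were also, like Lhx3, called higher in AGNHW than in sham. The fold was 20.6 (3.30 to 854) for Slc6a4, which rests on 1 sham count, and 3.18 (1.58 to 6.97) for Matn1. This likeness is over 3 libraries only.

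**Figure D4:**
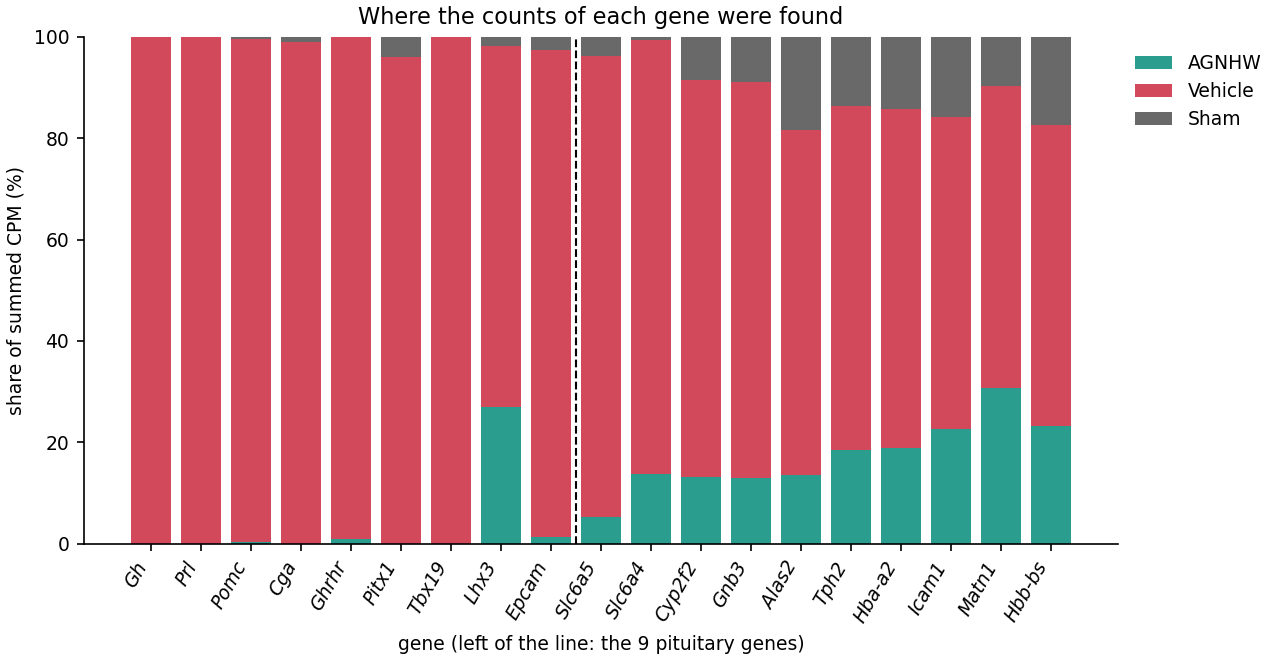
Share of each gene's summed TMM-scaled CPM found in the AGNHW, vehicle and sham libraries, in percent. Shown are the 9 pituitary genes (left of the dashed line) and 10 other genes. The 10 have the highest vehicle share among other named genes with at least 50 vehicle counts. The vehicle part fills 96.0% or more of the bar for 8 of the 9 genes and 71.3% for Lhx3, against 59.3% to 90.8% for the 10 others.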

How the data were processed

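Brain RNA was sequenced on an Illumina HiSeq, per the series' design text, and the 3 libraries were grouped by title. For each gene symbol the authors deposited a whole-number read count, not normalised. The submitters' processing notes name Bowtie2 (2.2.3), TopHat2 (2.0.12), HTSeq (0.6.0) and the build mm9, and no source used here gives their settings or strand handling. Reads of overlapping genes can therefore not be told apart; of the genes that overlap a member in GENCODE M21, Gm47071 (opposite Pitx1) was counted, with 29 counts in AGNHW, 16 in vehicle and 21 in sham.

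TMM factors were 1.00 (AGNHW), 0.968 (vehicle) and 1.03 (sham), from edgeR 4.0.16 in R 4.3.3. Ratios have exact conditional binomial 95% intervals (scipy 1.17.1, Python 3.11.15). A library at 0 was set to 3 counts (0.164 CPM in AGNHW, 0.197 CPM in vehicle and 0.159 CPM in sham). Such folds are lower bounds at that setting only, and the 95% intervals of these ratios start lower. List medians used a prior count of 5. With 1 library per group no test was made. Lengths came from GENCODE M21. The members, lists, motifs and rules were chosen with earlier results of these data known. Some listed genes are not reported here.

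Named were the 9 members and counted genes of the lists of beta subunits, lineage factors and receptors. From each other list the 3 genes with the largest absolute log2 ratio of vehicle against sham were named. The 10 genes with the highest vehicle share were named too (at least 50 vehicle counts, no predicted or clone names). Pcsk1n, Sox2, Agrp, Npy, Trh, Hcrt, Th, Ghr, Socs2, Ttr, Hba-a1 and Hbb-bt were also named, after their values were seen. Alternatives were plain CPM, DESeq2 1.42.0 size factors, upper-quartile factors, totals without the hormone genes, other level and fold limits, a length and GC correction, and shares without mitochondrial genes.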

Additional observations from a re-analysis of the deposited data

How the results depend on the processing

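No paired analysis was possible because each group had 1 library, and for the same reason no library could be left out. In vehicle against sham and in AGNHW against vehicle, 6 to 9 of the 9 members were called in the same direction under every alternative but one. With a mean of at least 5 CPM, 3 (Gh, Prl and Pomc) were called in each of these. Plain CPM moved Lhx3 under the minimum level (mean 0.993 CPM), so its calls were lost. In AGNHW against sham, 0 members were called with plain CPM or with a mean of at least 5 CPM, and 2 with the length and GC correction, which added Pomc as lower at a ratio of 0.611. That correction took 46.1% of the variance of the log2 ratio over 9941 genes in vehicle against sham, and there the log2 ratio of Pomc was 7.45 instead of 8.05. The calls of the other gene lists were not redone with it. The hormone share in vehicle was 0.382% of counts without mitochondrially encoded genes. No log2 ratio of a called member changed sign under another scaling or the correction. Depth limits the genes read at a few counts, as their wide intervals show.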
